A study of Mus musculus with 6 samples.

Results

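The genes described here are imprinted genes that lie outside the Igf2 and Dlk1 domains, 10 of the 39179 genes listed in the files, picked by symbol. The members were Mest, Peg3, Plagl1, Grb10, Airn, Igf2r, Gnas, Impact, Inpp5f and Commd1. All 10 passed the filter on low values, which left 14365 genes for testing. Poly(A) RNA had been sequenced from liver tumours of wild-type C57BL/6 mice. In both groups transposable elements that encode Myc had been brought into hepatocytes by hydrodynamic injection, in which a large volume given quickly through the tail vein drives DNA into the liver. They were combined with elements for NrasG12V, a mutant Nras locked in its active state, in 3 samples (Myc/NrasG12V), and with elements for Akt1, a growth factor pathway kinase, in the other 3 (Myc/Akt1). The labels gave neither the promoters of these elements, nor the form of Akt1, nor the age of the mice or the time from injection to sampling. There was no normal liver among the samples, and nothing in the labels tells if each sample was taken from its own mouse, so p-values measure only the spread between these samples, which may be technical.

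Imprinted genes are expressed mainly from 1 parental copy, chosen by DNA methylation marks that were set in the egg or the sperm. Many of them act on fetal growth, with genes of the paternal copy often promoting it and genes of the maternal copy often restraining it, and many are turned down in the liver after birth. Mest, Peg3, Plagl1, Airn and Impact are known as genes of the paternal copy, and Igf2r and, outside the brain, Grb10 as genes of the maternal copy. Gnas has transcripts of both kinds. For Inpp5f and Commd1 imprinting has been described mainly in the brain, for Inpp5f in a transcript variant. The values here are totals over both copies, so parental copies cannot be told apart in them.

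The libraries held between 17881282 and 27865094 reads, and 1 read corresponded to 0.0359 to 0.0559 CPM, the unit of the files, in which every library is brought to the same total. Nras was at 171 ± 25.0 CPM in the NrasG12V tumours against 56.0 ± 4.51 CPM in the Akt1 tumours (SD, n = 3 each), and Akt1 was at 65.1 ± 19.1 and 279.9 ± 33.8 CPM (SD, n = 3 each). Hepatocyte markers were abundant in every library, with summed levels of 109027 to 147740 CPM in Myc/NrasG12V and 37440 to 52159 CPM in Myc/Akt1 over 6 genes. By limma at an adjusted p under 0.05, 2 of these genes, Apoa1 and Serpina1c, were higher in Myc/NrasG12V. The other 4, albumin among them, did not pass. Albumin alone took 9.07 to 12.4% of the reads in Myc/NrasG12V and 2.99 to 3.85% in Myc/Akt1. Mitochondrial genes took 2.05 to 3.99% and 7.62 to 9.09% of the reads, and the part of these shares in the results was not tested. Over all tested genes the log2 difference had a median of -0.26 in CPM and of 0.00 once TMM scaling factors were applied. Log2 differences below are Myc/NrasG12V minus Myc/Akt1 and are to be read against that shift. On the second principal component Myc/NrasG12V replicate 3 lay away from the other libraries of its group.

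Sequence upstream of an annotated start is shown for 3 members. Mest and Plagl1 contain there the hexamer bound by Zfp57, a zinc finger protein that keeps methylation marks in place. The Airn stretch contains few CpG dinucleotides, the sites of DNA methylation. It ends at the base before the annotated Airn start, so CpG dinucleotides beyond that start were not counted. The 3 stretches come from RefSeq (GRCm38.p6) and are written 5′ to 3′ in the direction of transcription. They lie on the plus strand and were shortened where an annotated UTR began. Capitals mark the Zfp57 hexamer TGCCGC or its reverse complement GCGGCA in Mest and Plagl1, and each CG in Airn.
Mest, chr6:30737803-30738049: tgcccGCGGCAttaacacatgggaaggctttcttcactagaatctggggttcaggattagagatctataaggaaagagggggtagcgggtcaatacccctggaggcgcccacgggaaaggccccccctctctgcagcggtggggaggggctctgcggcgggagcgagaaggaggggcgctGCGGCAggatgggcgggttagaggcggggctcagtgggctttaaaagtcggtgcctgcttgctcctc
Plagl1, chr10:13090582-13090787: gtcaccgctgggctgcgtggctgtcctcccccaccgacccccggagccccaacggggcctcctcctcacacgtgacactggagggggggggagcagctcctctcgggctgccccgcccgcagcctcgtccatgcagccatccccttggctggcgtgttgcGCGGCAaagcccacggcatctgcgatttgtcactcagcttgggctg
Airn, chr17:12741061-12741310: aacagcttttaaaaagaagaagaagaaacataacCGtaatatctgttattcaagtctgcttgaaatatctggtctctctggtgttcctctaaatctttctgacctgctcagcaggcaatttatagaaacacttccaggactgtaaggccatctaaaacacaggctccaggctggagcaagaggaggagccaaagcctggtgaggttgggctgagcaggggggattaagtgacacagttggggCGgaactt
RefSeq gave 16 such windows of 250 bases upstream of a start for 9 of the 10 members. The hexamer, searched on both strands, was found in 3 windows of 2 members, with 2 matches in the Mest window shown and 1 in that of Plagl1. The Mest windows with the hexamer start at 30737800 and 30737803, so they overlap and hold the same 2 matches. Of all 32817 RefSeq windows of this length, 8.68% hold the hexamer. The Airn window holds 2 CpG dinucleotides and the richest Grb10 window 40, against a median of 6 over all windows. A match or its absence describes these letters only.

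Of the 10 members, 5 differed between the groups by limma (adjusted p under 0.05 over all tested genes). Mest, Inpp5f and Commd1 were higher in Myc/Akt1, and Peg3 and Airn were higher in Myc/NrasG12V. Over all tested genes 39.5% were called, 29.5% as higher in Myc/Akt1 and 10% as higher in Myc/NrasG12V, so the members' 5 of 10 is near the background. The counts of lists and neighbours below are to be read beside the same shares. The groups did not overlap for 6 members, against 52.7% of all tested genes. The median log2 difference of the members was -0.29. The direction was split among the genes of the paternal copy: Mest was higher in Myc/Akt1, and Peg3 and Airn in Myc/NrasG12V.

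**Figure D1:**
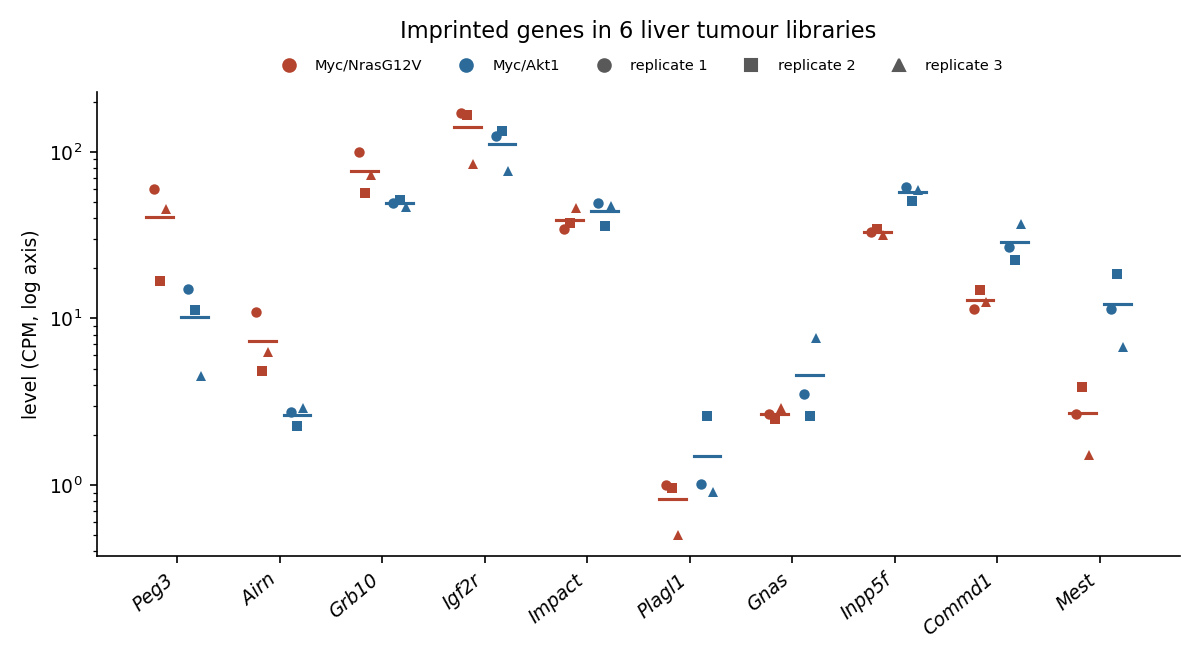
Level of each member in CPM in the 3 Myc/NrasG12V and the 3 Myc/Akt1 libraries, on a log axis; points are libraries and bars are group means. Mest, Inpp5f and Commd1 lie higher in every Myc/Akt1 library, and Peg3, Airn and Grb10 in every Myc/NrasG12V library.

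Per kilobase of annotated exon, Igf2r had the highest level of the members in both groups and Plagl1 the lowest. In Myc/NrasG12V the order of mean levels in CPM per kb was Igf2r at 15.1 ± 5.21 (SD, n = 3), Grb10 at 8.39 ± 2.38, Impact at 7.61 ± 1.17, Inpp5f at 3.96 ± 0.168, Peg3 at 3.04 ± 1.65, Commd1 at 2.17 ± 0.287, Airn at 2.04 ± 0.896, Mest at 0.683 ± 0.303, Gnas at 0.240 ± 0.0192 and Plagl1 at 0.105 ± 0.0355. The ranges of neighbours overlapped from Igf2r to Impact and from Inpp5f to Airn, and did not overlap between Impact and Inpp5f, nor at any step below Airn. In Myc/Akt1 the order was Igf2r at 12.0 ± 3.31 CPM per kb (SD, n = 3), Impact at 8.62 ± 1.40, Inpp5f at 6.86 ± 0.707, Grb10 at 5.40 ± 0.242, Commd1 at 4.83 ± 1.22, Mest at 3.09 ± 1.48, Peg3 at 0.768 ± 0.400, Airn at 0.735 ± 0.0942, Gnas at 0.408 ± 0.238 and Plagl1 at 0.192 ± 0.120. There the ranges of neighbours were apart only between Inpp5f and Grb10 and between Mest and Peg3. Mest thus stood below Peg3 and Airn in Myc/NrasG12V and above both in Myc/Akt1. Exon lengths are those of all annotated transcripts together, so these levels are approximate where a tumour uses only some of them. The places of Gnas, Mest and Commd1 in both orders are also uncertain, because each shares exon bases with a gene on the other strand, as described below.

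Mest (ENSMUSG00000051855, GRCm38 chromosome 6, 30723547 to 30748465, plus strand) encodes a protein of the alpha/beta hydrolase fold that is abundant in fetal mesoderm and in growing fat tissue. It was at 2.67, 3.90 and 1.51 CPM in Myc/NrasG12V replicates 1, 2 and 3, and at 11.4, 18.4 and 6.77 CPM in Myc/Akt1 replicates 1, 2 and 3. Every Myc/Akt1 library lay above every Myc/NrasG12V library, although the libraries within each group spread widely. The means were 2.70 ± 1.20 and 12.2 ± 5.84 CPM (SD, n = 3 each), or 4.52-fold higher in Myc/Akt1. The log2 difference was -1.79 (95% interval -2.65 to -0.92, limma adjusted p = 0.00655), and the call held in all 16 alternative settings. The last exons of Mest overlap those of Copg2, a coat protein gene on the other strand, over 23.1% of the Mest exon bases. In the principal transcript, Mest-211, the shared part is 35.5%. Copg2 was also higher in Myc/Akt1, at 22.7 ± 3.31 CPM in the NrasG12V tumours against 48.2 ± 6.21 CPM in the Akt1 tumours (SD, n = 3 each; limma adjusted p = 0.00290). The strand setting of the counting is not given in the sources used here, so reads of the shared bases may belong to either gene, and their part in the Mest value was not tested.

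Peg3 (ENSMUSG00000002265, chromosome 7, 6703892 to 6730431, minus strand) encodes a large zinc finger protein tied to p53-dependent cell death. Its levels were 59.9, 16.7 and 45.1 CPM in Myc/NrasG12V replicates 1, 2 and 3, and 15.02, 11.2 and 4.50 CPM in Myc/Akt1 replicates 1, 2 and 3. The groups did not overlap, but the lowest Myc/NrasG12V library was close to the highest Myc/Akt1 library. The means were 40.6 ± 22.0 and 10.2 ± 5.32 CPM (SD, n = 3 each), or 3.96-fold higher in Myc/NrasG12V. The log2 difference was 1.84 (95% interval 0.67 to 3.02, limma adjusted p = 0.0212). The call was lost without Myc/NrasG12V replicate 1 (limma adjusted p = 0.0713) and without Myc/Akt1 replicate 3 (0.0668). Of the listed partners of Peg3, the Siah ubiquitin ligases and Traf2, 1 of 4 was called, with Siah1b, at 1.31 ± 0.379 CPM in the NrasG12V tumours against 3.45 ± 0.893 CPM in the Akt1 tumours (SD, n = 3 each; limma adjusted p = 0.0145, lost without replicate 1 of either group, highest p 0.0573).

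Plagl1 (ENSMUSG00000019817, chromosome 10, 13060504 to 13131694, plus strand) encodes a zinc finger factor, also called Zac1, that restrains cell division and in the fetus acts on other imprinted genes. It was the scarcest member, with 9 to 72 reads a library. Levels were 1.00, 0.96 and 0.50 CPM in Myc/NrasG12V replicates 1, 2 and 3, and 1.02, 2.58 and 0.91 CPM in Myc/Akt1 replicates 1, 2 and 3. The groups overlapped and Myc/Akt1 replicate 2 alone was high. The log2 difference was -0.41 (95% interval -1.03 to 0.22, limma adjusted p = 0.270). The ratio of means was 1.83-fold higher in Myc/Akt1, and 1.17-fold without Myc/Akt1 replicate 2. None of the 3 tested relatives in the list passed, in either direction.

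Airn and Igf2r share a region of chromosome 17. Airn (ENSMUSG00000078247, 12741311 to 12860136, plus strand) is a long noncoding RNA that starts inside Igf2r and is transcribed across its start in the opposite direction. Its transcription is known to silence the paternal Igf2r copy and, in the placenta, the more distant Slc22a2 and Slc22a3. Airn was at 11.0, 4.82 and 6.26 CPM in Myc/NrasG12V replicates 1, 2 and 3, and at 2.76, 2.26 and 2.91 CPM in Myc/Akt1 replicates 1, 2 and 3. All 3 Myc/NrasG12V libraries were higher, and the Myc/Akt1 libraries lay close together. The means were 7.36 ± 3.2 and 2.64 ± 0.339 CPM (SD, n = 3 each), or 2.78-fold higher in Myc/NrasG12V. The log2 difference was 1.13 (95% interval 0.46 to 1.80, limma adjusted p = 0.0156), and the call was lost only without Myc/Akt1 replicate 2 (0.0606).

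Igf2r (ENSMUSG00000023830, 12682406 to 12769664, minus strand) encodes the receptor that takes insulin-like growth factor 2 to lysosomes for destruction and sorts lysosomal enzymes by their mannose 6-phosphate. It was at 169.9, 166 and 84.3 CPM in Myc/NrasG12V replicates 1, 2 and 3, and at 124, 134 and 76.3 CPM in Myc/Akt1 replicates 1, 2 and 3. The groups overlapped, and the third replicate was the lowest in both. The means were 140 ± 48.5 and 111 ± 30.8 CPM (SD, n = 3 each). The log2 difference was 0.30 (95% interval -0.42 to 1.02, limma adjusted p = 0.481). That interval includes no difference and also a doubling in Myc/NrasG12V. The annotated exons of Airn and Igf2r share 0 bases, although the genes overlap.

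Within 250 kb of Airn, 14 other genes were tested, of which 10 were higher in Myc/Akt1, 2 were higher in Myc/NrasG12V and 2 did not pass. Of all tested genes 29.5% were called higher in Myc/Akt1 and 10% higher in Myc/NrasG12V. The 2 higher in Myc/NrasG12V, Gm16574 and Gm7162, are annotated as processed pseudogenes and lie inside the span of Airn, outside its exons. Gm16574, on the strand of Airn, was at 3.82, 1.56 and 1.85 CPM in Myc/NrasG12V replicates 1, 2 and 3 and at 0.38, 0.25 and 0.36 CPM in Myc/Akt1 replicates 1, 2 and 3 (limma adjusted p = 0.00483). Gm7162, on the opposite strand, was at 4.82, 2.07 and 3.75 CPM and at 0.59, 0.50 and 0.45 CPM (limma adjusted p = 0.00221). As in Airn, every Myc/NrasG12V library was above every Myc/Akt1 library, and replicate 1 was the highest of its group. Whether these reads come from the pseudogenes or from unspliced Airn was not tested.

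Slc22a3, an organic cation transporter gene of the Airn domain, was at 0.534 ± 0.177 CPM in the NrasG12V tumours against 2.81 ± 0.709 CPM in the Akt1 tumours (SD, n = 3 each; limma adjusted p = 0.00197), on 32 and 204 reads in all. Slc22a2 had 0 reads in every library. Mas1, the receptor for angiotensin-(1-7), which lies partly inside Airn on the opposite strand, was among the 10 and had 7 reads over the Myc/NrasG12V group and 421 over the Myc/Akt1 group. Further along, the antioxidant enzyme gene Sod2 was at 59.7 ± 6.70 and 217 ± 15.4 CPM (SD, n = 3 each; limma adjusted p = 1.33e-04). Pnldc1, Mrpl18, Tcp1, Snora20, Acat2 and Acat3 were also higher in Myc/Akt1. Acat2 and Acat3 are near-identical copies whose reads may have been split between them, Snora20 lies within Tcp1, and the Tcp1 call was lost with each of 3 other scalings. Igf2r and Wtap were the 2 that did not pass.

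**Figure D2:**
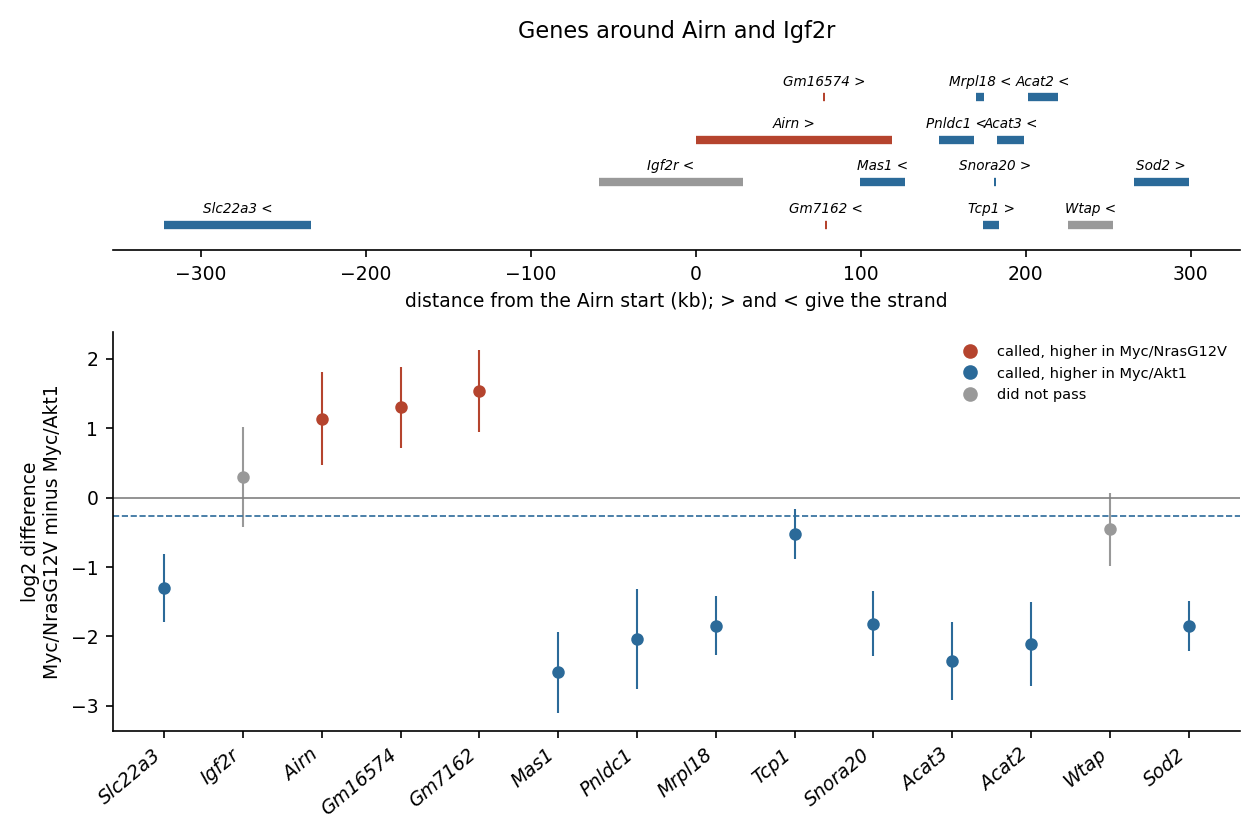
Top, position of Airn and of tested genes within 250 kb of it, 1 of the 14 being left out, in kb from the Airn start; bottom, log2 difference of each with its 95% interval, and a dashed line at the median of all tested genes (-0.26). Airn at 1.13 and the pseudogenes in its span lie above 0, Igf2r at 0.30 has an interval that includes 0, and the genes called higher in Myc/Akt1 lie on both sides of them.

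The list of genes that act with Igf2r, its ligands, the phosphotransferase that makes the mannose 6-phosphate tag and the retromer that recycles it, had 12 tested members, 5 higher in Myc/Akt1 and 2 higher in Myc/NrasG12V. The shares over all tested genes were 29.5% and 10%. Sort1, another lysosomal sorting receptor, was at 27.7 ± 5.32 CPM in the NrasG12V tumours against 9.98 ± 1.13 CPM in the Akt1 tumours (SD, n = 3 each; limma adjusted p = 0.00143). Vps35, the core of retromer, was at 85.1 ± 10.8 and 164 ± 23.0 CPM (SD, n = 3 each; limma adjusted p = 0.00394), and Gnptab, the tag-making enzyme, at 21.7 ± 3.67 and 48.1 ± 9.55 CPM (SD, n = 3 each; limma adjusted p = 0.00424). With each of the 3 other scalings the counts were 3 and 3. The ligand Igf2 was at 12365 ± 1049 CPM in the NrasG12V tumours against 192 ± 77.6 CPM in the Akt1 tumours (SD, n = 3 each; limma adjusted p = 2.13e-05). The median log2 difference of the list was -0.47.

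Grb10 (ENSMUSG00000020176, chromosome 11, 11930508 to 12038683, minus strand) encodes an adaptor that binds the insulin and IGF1 receptors and dampens their signal. It was at 99.5, 56.8 and 72.4 CPM in Myc/NrasG12V replicates 1, 2 and 3, and at 49.5, 51.1 and 46.7 CPM in Myc/Akt1 replicates 1, 2 and 3. The groups did not overlap, the Myc/Akt1 libraries were close together, and Myc/NrasG12V replicate 2 lay just above them. The means were 76.2 ± 21.6 and 49.1 ± 2.20 CPM (SD, n = 3 each). On the CPM scale the log2 difference was 0.59 (95% interval 0.10 to 1.08), and it missed the threshold (limma adjusted p = 0.0570). With TMM factors it was 0.90 and passed (limma adjusted p = 0.0151), as it did with the other 2 scalings, with edgeR, with DESeq2 and without Myc/NrasG12V replicate 2 (limma adjusted p = 0.0264).

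Of 11 tested genes in the list of Grb10 partners, 2 were higher in Myc/Akt1 and 1 in Myc/NrasG12V, or 4 and 0 without Myc/Akt1 replicate 3. With all libraries, the shares of all tested genes were 29.5% and 10%. The IGF1 receptor gene Igf1r was at 2.95 ± 1.37 CPM in the NrasG12V tumours against 0.764 ± 0.315 CPM in the Akt1 tumours (SD, n = 3 each; limma adjusted p = 0.0163, lost without Myc/Akt1 replicate 1 or 3, highest p 0.0571). Grb14, another adaptor of this family, was at 31.1 ± 13.5 and 115 ± 10.6 CPM (SD, n = 3 each; limma adjusted p = 0.00203), the opposite order to Grb10. Grb2, an adaptor that links receptors to Ras, was at 32.3 ± 0.958 and 61.3 ± 6.85 CPM (SD, n = 3 each; limma adjusted p = 0.00292). The insulin receptor gene Insr did not pass, at 127 ± 10.1 and 109.9 ± 16.0 CPM (SD, n = 3 each; limma adjusted p = 0.336). It and Trim28, Dnmt1 and Dnmt3a below were picked after their values had been seen. Next to Grb10, the dopa decarboxylase gene Ddc, imprinted in the heart, was at 5.13 ± 2.31 CPM in the NrasG12V tumours against 97.4 ± 34.5 CPM in the Akt1 tumours (SD, n = 3 each; limma adjusted p = 1.61e-04). Fignl1, a gene of DNA repair, was the other of the 4 tested neighbours to be called, and was also higher in Myc/Akt1. Both neighbours were thus higher in the group in which Grb10 had the lower values.

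Gnas (ENSMUSG00000027523, chromosome 2, 174284320 to 174346744, plus strand) encodes the stimulatory G protein alpha subunit, which couples hormone receptors such as those for glucagon and adrenaline to adenylyl cyclase. It was at 2.67, 2.48 and 2.91 CPM in Myc/NrasG12V replicates 1, 2 and 3, and at 3.52, 2.58 and 7.59 CPM in Myc/Akt1 replicates 1, 2 and 3. The groups overlapped, and Myc/Akt1 replicate 3 was the only high library. The means were 2.69 ± 0.215 and 4.56 ± 2.66 CPM (SD, n = 3 each), the log2 difference was -0.49 (95% interval -1.23 to 0.25), and the limma adjusted p was 0.259. These levels rest on 52 to 167 reads a library. A principal transcript, Gnas-208, shares 85.4% of its exon bases with Gm20721, a gene annotated on the other strand that had 0 to 3 reads. Where counting leaves out reads that fall on 2 genes, such sharing lowers both counts; whether that happened here was not tested, and the Gnas level is therefore uncertain.

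Of the 28 tested genes that act with Gnas, the adenylyl cyclases, protein kinase A subunits, phosphodiesterases and receptors, 4 were higher in Myc/Akt1 and 5 in Myc/NrasG12V. Calls over all tested genes stood at 29.5% and 10% in these directions. The cyclases Adcy1 and Adcy2 were the clearest in Myc/NrasG12V. Adcy1 was at 82.1 ± 39.3 against 8.32 ± 1.78 CPM (SD, n = 3 each; limma adjusted p = 2.59e-04), and Adcy2 at 19.7 ± 9.37 against 0.175 ± 0.0819 CPM (SD, n = 3 each; limma adjusted p = 1.30e-04). The kinase A catalytic subunit Prkaca was at 44.8 ± 3.51 and 108 ± 18.4 CPM (SD, n = 3 each; limma adjusted p = 0.00101), and the regulatory subunit Prkar2a at 33.0 ± 5.26 and 122 ± 54.3 CPM (SD, n = 3 each; limma adjusted p = 0.00462). The median of the list was -0.15, and with TMM factors the counts were 2 and 5. Without Myc/Akt1 replicate 1 they were 2 and 4, and without Myc/Akt1 replicate 2 they were 3 and 3.

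Impact (ENSMUSG00000024423, chromosome 18, 12955852 to 12992950, plus strand) encodes an inhibitor of Gcn2, the kinase that slows translation when amino acids run short. It was at 34.2, 37.2 and 45.7 CPM in Myc/NrasG12V replicates 1, 2 and 3, and at 49.3, 36.0 and 47.3 CPM in Myc/Akt1 replicates 1, 2 and 3. The groups overlapped, with means of 39.0 ± 6.00 and 44.2 ± 7.19 CPM (SD, n = 3 each). The log2 difference was -0.17 (95% interval -0.62 to 0.27, limma adjusted p = 0.512), and its sign turned with each of the 3 other scalings. Of 8 tested genes of the pathway, 5 were higher in Myc/Akt1 and 1 in Myc/NrasG12V, beside 29.5% and 10% of all tested genes. The one was Eif2ak4, which encodes Gcn2 itself, at 53.8 ± 7.31 against 24.4 ± 0.451 CPM (SD, n = 3 each; limma adjusted p = 0.00153). Among the 5 were Eif2s3x and Eif2s2, subunits of the initiation factor that Gcn2 acts on, and Drg1, a GTPase gene. Eif2s3x was at 17.0 ± 1.99 and 51.9 ± 9.88 CPM (SD, n = 3 each; limma adjusted p = 6.98e-04). With TMM factors the counts were 3 and 2.

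Inpp5f (ENSMUSG00000042105, chromosome 7, 128611328 to 128696425, plus strand) encodes Sac2, a phosphatase of inositol lipids on endosomes. Its levels were 32.8, 34.4 and 31.6 CPM in Myc/NrasG12V replicates 1, 2 and 3, and 61.9, 50.5 and 59.0 CPM in Myc/Akt1 replicates 1, 2 and 3. Both groups were tight and far from overlapping. The means were 32.9 ± 1.40 and 57.1 ± 5.89 CPM (SD, n = 3 each), or 1.73-fold higher in Myc/Akt1, with a log2 difference of -0.77 (95% interval -1.14 to -0.41, limma adjusted p = 0.00598). The call was lost with the factors of TMM (0.0556), median of ratios (0.0610) and upper quartile (0.0797), with edgeR (0.0543) and with DESeq2 (0.0569). Among 19 tested genes for related phosphatases and lipid kinases, 6 were higher in Myc/Akt1 and 1 in Myc/NrasG12V. The shares of all tested genes in these directions were 29.5% and 10%. The list counts became 3 and 2 with TMM factors, and 3 and 1 without Myc/Akt1 replicate 1 or replicate 2. Fig4, the phosphatase of the endosomal lipid kinase complex, was at 12.6 ± 0.972 and 33.1 ± 5.13 CPM (SD, n = 3 each; limma adjusted p = 0.00124), and Sacm1l, a phosphatase of the same Sac family, at 48.0 ± 6.41 and 104 ± 16.2 CPM (SD, n = 3 each; limma adjusted p = 0.00227). Vac14, the scaffold of the complex that holds Fig4, was at 29.2 ± 3.18 and 55.6 ± 10.8 CPM (SD, n = 3 each; limma adjusted p = 0.00755, lost with upper-quartile factors at 0.0515). Inpp4a, another phosphatase gene, was at 40.9 ± 1.12 and 21.6 ± 6.05 CPM (SD, n = 3 each; limma adjusted p = 0.00940).

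Commd1 (ENSMUSG00000051355, chromosome 11, 22896136 to 22982382, minus strand) encodes a protein of the Commander complex, which recycles membrane proteins from endosomes, and is known for its part in copper export by the liver. It was at 11.5, 14.8 and 12.5 CPM in Myc/NrasG12V replicates 1, 2 and 3, and at 26.7, 22.6 and 36.7 CPM in Myc/Akt1 replicates 1, 2 and 3. Every Myc/Akt1 library was higher. The means were 12.9 ± 1.70 and 28.7 ± 7.27 CPM (SD, n = 3 each), or 2.22-fold higher in Myc/Akt1, with a log2 difference of -1.07 (95% interval -1.59 to -0.55, limma adjusted p = 0.00664). The call held in all 16 alternative settings. Zrsr1, a gene of the paternal copy that lies within Commd1 on the other strand, shares 6.94% of the Commd1 exon bases, but 0 bases of its principal transcript, Commd1-204. Zrsr1 did not pass, at 4.78, 7.81 and 11.2 CPM in Myc/NrasG12V replicates 1, 2 and 3 and at 6.49, 6.03 and 7.32 CPM in Myc/Akt1 replicates 1, 2 and 3. Gm28048, on the strand of Commd1, shares 4.95% of the Commd1 exon bases and had 0 reads. The part of this sharing in the Commd1 value was not tested.

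Of 19 tested genes for the Commander complex and copper handling, 6 were higher in Myc/Akt1 and 1 in Myc/NrasG12V. The shares of all tested genes were 29.5% and 10%, and the list median was -0.50. With TMM factors the counts were 4 and 2. The copper importer Slc31a1 was at 93.2 ± 27.8 CPM in the NrasG12V tumours against 207 ± 21.2 CPM in the Akt1 tumours (SD, n = 3 each; limma adjusted p = 0.00550). Ccs, the chaperone that gives copper to superoxide dismutase, was at 67.7 ± 5.31 and 125 ± 6.59 CPM (SD, n = 3 each; limma adjusted p = 0.00237). Of the complex members, Commd6 was at 16.6 ± 1.48 and 32.7 ± 1.89 CPM and Commd8 at 16.1 ± 1.20 and 28.6 ± 1.42 CPM (SD, n = 3 each), although the call of Commd8 was lost with upper-quartile factors and that of Slc31a1 with edgeR. Without Myc/NrasG12V replicate 3 the count higher in Myc/Akt1 was 10.

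**Figure D3:**
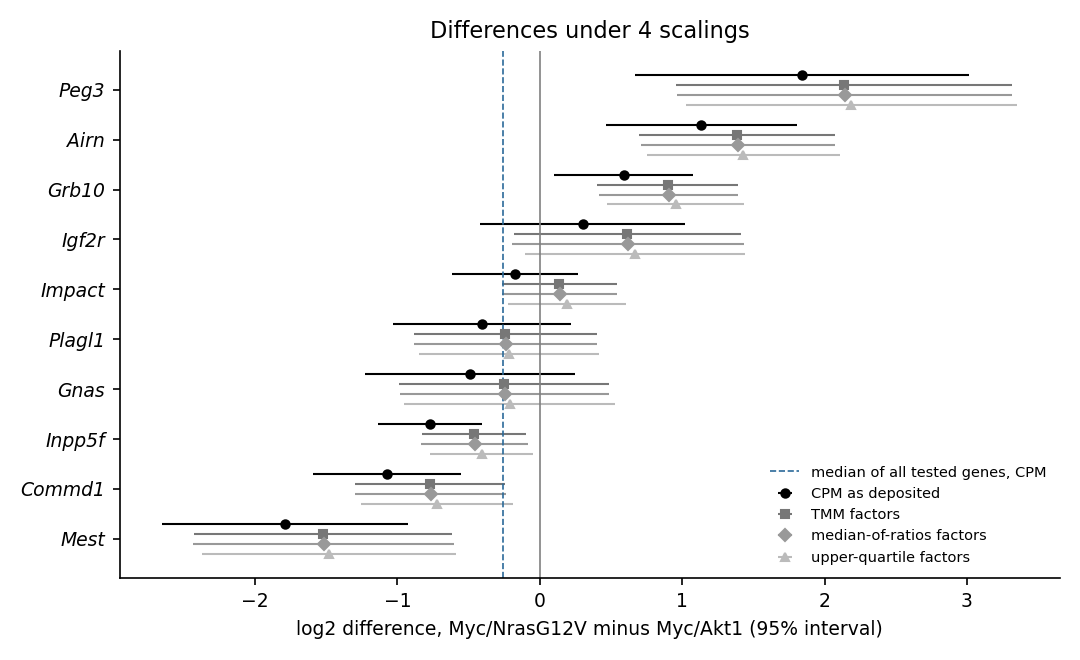
Log2 difference of each member with its 95% interval, Myc/NrasG12V minus Myc/Akt1, on the CPM scale and with the other scalings. The values with other scalings lie to the right of the CPM values, Grb10 at 0.59 on the CPM scale reaches 0.90 with TMM factors, and Impact at -0.17 changes sign.

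Among the genes that keep or remove imprinting marks, Zfp57 was called higher in Myc/NrasG12V and 7 others were called higher in Myc/Akt1. Of the 17 tested, 9 did not pass, and the 8 called are near the background of 39.5%. The median log2 difference was -0.39. Of the calls, 87.5% were higher in Myc/Akt1, against 74.7% of those over all tested genes; with TMM factors the counts were 6 and 1. Zfp57 was at 33.0, 22.3 and 22.3 CPM in Myc/NrasG12V replicates 1, 2 and 3, and at 3.01, 2.76 and 2.86 CPM in Myc/Akt1 replicates 1, 2 and 3. The lowest Myc/NrasG12V library was thus far above the highest Myc/Akt1 library, and the mean was 8.98-fold higher (log2 difference 2.77, limma adjusted p = 1.20e-04). Its corepressor partner Trim28 did not pass, at 96.6 ± 6.78 and 115 ± 7.50 CPM (SD, n = 3 each). The methyltransferase that copies methylation, Dnmt1, was at 21.8 ± 4.50 CPM in the NrasG12V tumours against 60.2 ± 18.3 CPM in the Akt1 tumours (SD, n = 3 each; limma adjusted p = 0.00355), and its guide Uhrf1 at 4.84 ± 3.23 and 29.9 ± 10.8 CPM (SD, n = 3 each; limma adjusted p = 0.00217). The de novo methyltransferase Dnmt3b was at 4.42 ± 1.25 and 18.3 ± 3.88 CPM (SD, n = 3 each; limma adjusted p = 9.98e-04), whereas Dnmt3a did not pass, at 38.5 ± 6.64 and 32.7 ± 6.04 CPM (SD, n = 3 each). Ctcf, the insulator protein of several imprinted domains, was at 24.6 ± 5.80 and 54.2 ± 3.81 CPM (SD, n = 3 each; limma adjusted p = 0.00290). Several of these genes are also highest in dividing cells: all 10 cell cycle markers were higher in Myc/Akt1, with summed levels of 75.5 to 116 CPM in Myc/NrasG12V and 564 to 1016 CPM in Myc/Akt1. The part of cell division in these differences was not tested.

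**Figure D4:**
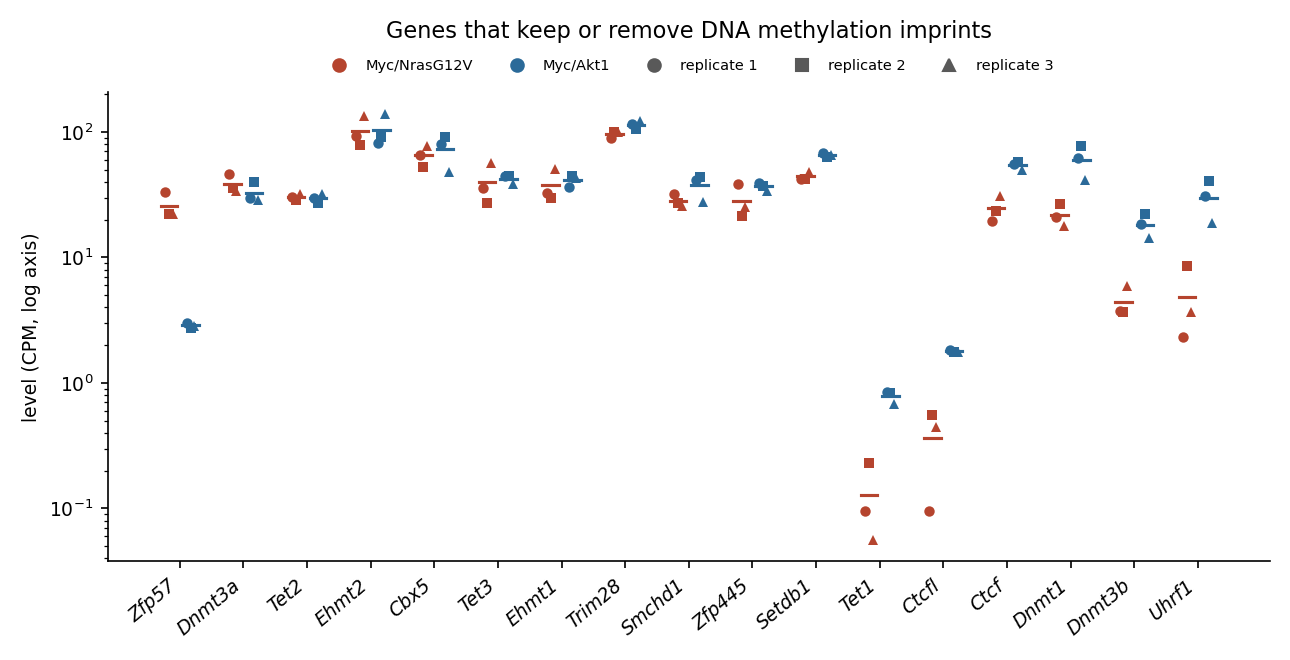
Levels in CPM, on a log axis, of genes that keep or remove imprinting marks in the 3 Myc/NrasG12V and 3 Myc/Akt1 libraries. Zfp57 is the only one called higher in Myc/NrasG12V, at 22.3 to 33.0 CPM against 2.76 to 3.01 CPM.

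Slc38a4, Ddc and Sfmbt2 were among the other imprinted genes called higher in Myc/Akt1, and Dcn was called higher in Myc/NrasG12V. Of 46 such genes found in the files, 5 had 0 reads in every library (Usp29, Klf14, Slc22a2, Magel2 and Kcnk9) and 30 were tested, of which 7 were higher in Myc/Akt1, 1 was higher in Myc/NrasG12V and 22 did not pass, beside 8688 of the 14365 genes tested in all. Their median log2 difference was -0.19, against -0.26 for all tested genes, and with TMM factors the counts were 6 and 3. Without Myc/Akt1 replicate 3 they were 7 and 2, without Myc/NrasG12V replicate 3 they were 10 and 1, and with DESeq2 they were 6 and 5. Copg2, Ddc and Slc22a3, described above, are among the 7 called on the CPM scale with all libraries. Slc38a4, an amino acid transporter gene of the paternal copy, was the most abundant of those called, at 371, 384 and 286 CPM in Myc/NrasG12V replicates 1, 2 and 3 and at 897, 913 and 933 CPM in Myc/Akt1 replicates 1, 2 and 3 (limma adjusted p = 8.44e-04). Sfmbt2, a polycomb gene of the paternal copy, was at 0.261 ± 0.209 and 3.55 ± 1.59 CPM (SD, n = 3 each; limma adjusted p = 0.00163). Dcn, a matrix proteoglycan gene imprinted in the placenta, was the one higher in Myc/NrasG12V, at 143, 151 and 120.2 CPM against 46.8, 69.7 and 44.4 CPM (limma adjusted p = 0.00136). Of 7 tested genes of the Igf2 and Dlk1 domains, 0 were higher in Myc/Akt1 and 6 in Myc/NrasG12V.

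Over all 10 domains, 47 genes within 250 kb of a member were tested, counting each once, with 23 higher in Myc/Akt1, 3 higher in Myc/NrasG12V and 21 that did not pass. Among all tested genes 29.5% were called higher in Myc/Akt1 and 10% higher in Myc/NrasG12V. These totals are on the CPM scale and were not counted with the other scalings. Beside the neighbours named above, Cep41 near Mest, Bag3 near Inpp5f, Ltv1 near Plagl1, Cct4 near Commd1 and Nelfcd, Slmo2 and Vamp7-ps near Gnas were higher in Myc/Akt1 on the CPM scale. Of these, the calls of Cep41, Ltv1, Cct4, Slmo2 and Vamp7-ps were lost with all 3 other scalings, that of Bag3 with 2 of them and that of Nelfcd with 1. Near Impact all 3 tested genes, Ttc39c, Cabyr and Osbpl1a, were higher in Myc/Akt1, although Impact itself did not pass, and the Osbpl1a call was lost with the other scalings. Tubb1, a tubulin gene of platelets near Gnas, was called higher in Myc/NrasG12V, on 115 reads over that group and 2 over the Myc/Akt1 group. Near Peg3 no other gene passed the filter.

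Markers of several other cell types moved with the groups as well. Their counts stand beside 29.5% of all tested genes called higher in Myc/Akt1 and 10% called higher in Myc/NrasG12V. In bulk samples, fewer cells of a type and less RNA per cell cannot be told apart. Of 6 erythroid markers 5 were higher in Myc/NrasG12V, with summed levels of 273 to 1695 CPM against 47.0 to 92.8 CPM, and of 5 tested neutrophil markers 4 were, at 19.5 to 149 CPM against 1.68 to 2.08 CPM summed over 6 genes. Of 6 T or NK cell markers 3 were higher in Myc/NrasG12V, with sums of 10.1 to 25.0 CPM against 3.27 to 5.28 CPM, and neither of the 2 tested B cell markers passed. Cholangiocyte markers summed to 424 to 968 CPM in Myc/NrasG12V and 127 to 262 CPM in Myc/Akt1, mostly from Spp1, the 1 of 5 that was called. The number called higher in Myc/NrasG12V was 2 without Myc/NrasG12V replicate 3, 3 with TMM factors, 4 with edgeR and 5 with DESeq2. Of 6 endothelial markers 3 were higher in Myc/NrasG12V and 1, Cdh5, in Myc/Akt1, with overlapping sums of 145 to 228 CPM and 165 to 205 CPM. Without Myc/NrasG12V replicate 2, Myc/Akt1 replicate 1 or Myc/Akt1 replicate 2 only 1 of them was higher in Myc/NrasG12V, and the call of Cdh5 was lost with each of the 3 other scalings, with edgeR, with DESeq2, without Myc/NrasG12V replicate 1 or 3 and without Myc/Akt1 replicate 1 or 2. Of 8 stellate cell or fibroblast markers 1 was called, Dcn itself, and the summed levels overlapped at 449 to 525 CPM and 364 to 603 CPM. Of 6 macrophage markers 2 were higher in Myc/NrasG12V, at 205 to 481 CPM against 160 to 215 CPM, and 1 was when replicate 1 of either group, Myc/Akt1 replicate 3 or Myc/NrasG12V replicate 2 was left out. Adipocyte or mesothelial markers summed to 1.19 to 6.80 CPM and 1.59 to 3.45 CPM, with Lep at 0 reads in every library. The part of these cell types in the members' values was not tested.

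Across the 6 libraries, the gene whose log2 level ran most like that of each member was described by Pearson's r over 10405 (10406 for Plagl1, Airn and Gnas) other tested genes whose mean reached 5 CPM. All 6 points share the division into groups. The coefficient was over 0.95 with 1030 genes for Inpp5f, with 441 for Mest and with 373 for Commd1. The nearest were Ndfip2 for Inpp5f (r = 0.999), Slc26a6 for Mest (r = 0.996) and Cdc26 for Commd1 (r = 0.998). For Peg3, with 27 such genes, the nearest was Pirb (r = 0.993), a receptor gene of myeloid cells. Airn had 34 such genes and ran most like Plce1 (r = 0.996), and Grb10 had 26 and ran most like Zfp169 (r = 0.986). Igf2r had the fewest, 5, with Dnase2b at r = 0.977. The nearest of the others were Glce for Plagl1 (r = 0.988), Zfp62 for Gnas (r = 0.985) and ENSMUSG00000052429 for Impact (r = 0.988).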

How the data were processed

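Each deposited file gives 1 value per gene for 1 library in a column named reads, which holds CPM as scaled by the authors. Whole reads were recovered, since 100% of values were multiples of 1 read to within 0.01 read. Per the submitters' processing notes, the tools were edgeR 3.22.5, Subread 1.6.3 and STAR 2.6.1c and the build was GRCm38; the annotation release, strand setting and handling of multi-mapped reads are not given in the sources used here. Positions come from GENCODE M21 (GRCm38), which held 37607 of 39179 gene identifiers (96.0%).

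Groups were compared with limma 3.58.1 in R 4.3.3 on log2(CPM + 1), by lmFit and a trended eBayes, two-sided, with Benjamini-Hochberg adjustment over the 14365 genes that passed filterByExpr of edgeR (0.457 CPM in 3 libraries and 15 reads in total); genes with an adjusted p under 0.05 were called. The log2 differences understate the change of low genes, and fold values are ratios of mean CPM. An exact permutation test of 1 gene with 3 samples a group cannot go below p = 0.1. Alternatives were 3 scaling factors, 2 filters, 2 pseudocounts, edgeR 4.0.16 and DESeq2 1.42.0 on recovered reads, a replicate block and the omission of each library in turn. The code was tested on simulated data.

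Members and lists were chosen with earlier results of these data known. The text names all members, called genes within 250 kb of one and the gene most like each member. By the same rule it names up to 4 called genes of lowest adjusted p per list. From the lists of cell type markers, cell cycle markers and Igf2 and Dlk1 domain genes, only some or none of these are named. Insr, Trim28, Dnmt1, Dnmt3a, Wtap, Zrsr1, Lep and the imprinted genes with 0 reads are named outside this rule, after their values had been seen. Of the called genes near Airn and Igf2r, 1 is counted but not reported here.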

Additional observations from a re-analysis of the deposited data

How the results depend on the processing

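Scaling changed the balance of the comparison more than the other choices. Genes called higher in Myc/Akt1 numbered 4240 in CPM, 2565 after TMM, 2515 after median-of-ratios and 2343 after upper-quartile scaling, 2512 with edgeR and 2791 with DESeq2; genes called higher in Myc/NrasG12V numbered 1437, 2331, 2366, 2544, 2381 and 2752. The share of calls higher in Myc/Akt1 was 74.7% on the CPM scale and 52.4, 51.5 and 47.9% with the 3 factors. Under these 5 settings the members gave 3 calls higher in Myc/NrasG12V, Grb10 being added, and 2 higher in Myc/Akt1, Inpp5f being lost. The log2 difference of Impact changed sign, to 0.14 after TMM, 0.14 after median-of-ratios and 0.19 after upper-quartile scaling, 0.13 with edgeR and 0.14 with DESeq2. Leaving out 1 library gave 1 to 3 members higher in Myc/NrasG12V (1 without Myc/NrasG12V replicate 1, Myc/Akt1 replicate 2 or Myc/Akt1 replicate 3) and 3 higher in Myc/Akt1 each time, and 3856 to 6298 genes called in all, 966 to 1502 of them higher in Myc/NrasG12V and 2890 to 4796 higher in Myc/Akt1. Filters and pseudocounts kept 2 and 3 member calls. Samples of the same replicate number deviated from their group means with correlations of -0.0812, 0.113 and 0.0848, and not every sample correlated best with its own number, so the numbers were not taken to pair the samples; with the replicate number as a block 5530 genes were called, 1467 and 4063 by direction, and 2 and 3 members. Read numbers limited the precision of Plagl1, Mest, Gnas and Airn, at 9 to 72, 27 to 512, 52 to 167 and 63 to 230 reads a library.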
